A study of Pyrocoelia pectoralis with 6 samples.

Results

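In a firefly, 26 genes with no annotation at all differed strongly in RNA level between the organ that makes light and an organ that does not. Of these, 6 stood higher in the luminous organ and 20 stood higher in the non-luminous organ. They were taken from the 12533 genes of the authors' deposited table, of which 3051 had an empty description, no Gene Ontology term and no pathway. A member had to reach a mean of at least 20 FPKM in 1 organ, where FPKM scales the reads of a gene by its length and by the total of the library. Its larger mean plus 1 also had to be at least 8 times its smaller mean plus 1. The organ means therefore chose the members, and the organ difference of a member is given here as a description, with no test. The messenger RNA came from male Pyrocoelia pectoralis, with 3 libraries per organ. No genotype, treatment, age or body position is given, and the labels do not say which tissue the non-luminous organ is. Nor do they state whether the 3 libraries per organ are separate animals or pools, so the spread between libraries may be partly technical.

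A firefly lantern is built of photocytes, which hold the luciferase reaction, together with tracheal branches that bring oxygen, nerves, a reflecting layer and the cuticle above it. A dissected organ therefore mixes several cell types. Genes with no annotation are predicted from the genome but resemble no named protein closely enough to take its name. Such genes are often short, and many are known only from 1 insect lineage, so their products and roles are not known.

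The labelled organs were first set against lantern markers. The gene RI129_003463, described as a luciferin 4-monooxygenase, the name of luciferase, stood at 532, 374 and 292 FPKM in luminous replicates 1, 2 and 3 and at no more than 0.595 FPKM in any non-luminous library. The posterior Hox gene Abd-B had a mean of 29.3 ± 9.14 FPKM (SD, n = 3) in luminous libraries and 0.775 ± 0.672 FPKM in the others. The whole lantern list, which takes in every gene described as a luciferin 4-monooxygenase, held 32 genes, of which 22 were tested, 3 were higher and 12 lower in the luminous organ. Its summed level was 1017 to 1139 FPKM in the luminous and 602 to 628 FPKM in the non-luminous libraries. Library totals, read back from the FPKM steps, lay between 18.04 M and 20.42 M reads. On principal component 2, which held 15.7% of the variance, luminous replicate 1 stood apart from the other luminous libraries. Of 9863 tested genes, limma called 950 higher in the luminous organ and 1676 lower. The share of calls that were higher was 36.2% on the values as given. It was 46.5% when the libraries were rescaled by median of ratios and 53.8% with quantile normalization. These rescalings moved the median log2 difference of all genes from -0.095 to -0.001 and 0.074, which is small beside the differences of the members.

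**Figure D1:**
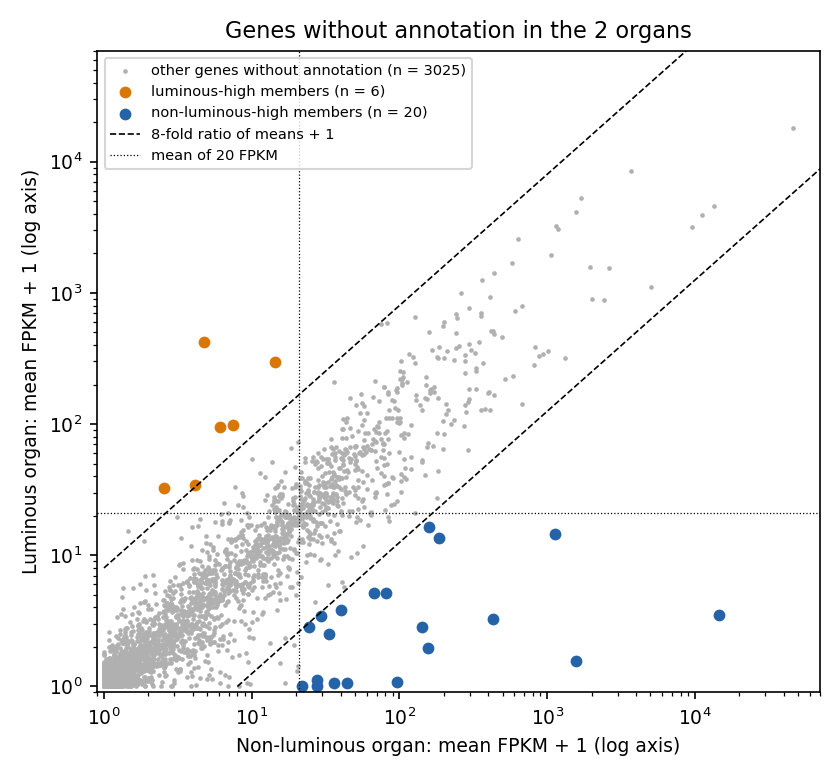
Mean FPKM plus 1 of the 3051 genes without annotation in the non-luminous organ (horizontal) and the luminous organ (vertical), both on log axes, with 1 point per gene. The 6 luminous-high members lie above the upper dashed line and the 20 non-luminous-high members below the lower one. The dashed lines mark a ratio of 8 and the dotted lines a mean of 20 FPKM.

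The luminous-high set was led by RI129_002442. It stood at 159, 342 and 756 FPKM in luminous replicates 1, 2 and 3 and at 5.12, 3.58 and 2.67 FPKM in the non-luminous replicates. The luminous mean of 419 ± 306 FPKM (SD, n = 3) was 111 times the non-luminous mean of 3.79 ± 1.23 FPKM, and its rank by luminous level was 254. It was also the shortest of the 6, with a coding length of 228 bases read back from the FPKM steps, and it was counted 5584 times in the luminous libraries and 48 times in the others. The groups did not overlap, although the luminous values differed among themselves by a factor of 4.75.

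RI129_011036, with a coding length of 420 bases, was the next by level and the least even. It stood at 2.97, 507 and 376 FPKM in luminous replicates 1, 2 and 3, and at 6.57, 12.7 and 20.9 FPKM in the non-luminous replicates. Luminous replicate 1 thus lay below every non-luminous library, and the groups overlapped. The value rested on 25 reads in that library against 4352 and 2990 in the other luminous libraries. Limma did not call this gene with all libraries, and called it in the fit without luminous replicate 1.

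The 4 other luminous-high members had non-overlapping groups. RI129_004310 stood at 34.0, 44.9 and 212 FPKM in luminous replicates 1, 2 and 3 and at 3.49, 4.70 and 11.3 FPKM in the non-luminous replicates. RI129_013035, the longest at 2511 bases, stood at 34.3, 76.9 and 172 FPKM against 4.67, 4.94 and 5.78 FPKM. The ratio of means was 14.9 for RI129_004310 and 18.4 for RI129_013035. RI129_005073 stood at 20.2, 24.0 and 54.8 FPKM in the luminous and 3.32, 3.41 and 2.64 FPKM in the non-luminous libraries, and with a rule ratio of 8.25 it was the member nearest the threshold. RI129_009850 stood at 7.60, 21.1 and 65.9 FPKM against 1.74, 2.15 and 0.748 FPKM. Its luminous mean of 31.5 ± 30.5 FPKM (SD, n = 3) was the lowest of the set.

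Luminous replicate 1 was the lowest luminous library for all 6 members, and replicate 3 was the highest for 5 of them. Over the 6 members, replicate 1 stood at a median of 0.270 times the mean of replicates 2 and 3. The same median was 1.035 over the 4714 tested genes with a luminous mean of at least 20 FPKM and 0.977 over the 14 annotated genes past the same 2 thresholds. Replicate 1 was the lowest luminous library for 5 of those 14 and for 28.5% of the 4714. The lantern genes did not share 1 order. RI129_003463 was highest in luminous replicate 1, whereas RI129_011075, another gene described as a luciferin 4-monooxygenase, stood at 416, 433 and 658 FPKM there in the order of most members, and at 306 to 348 FPKM in the non-luminous libraries. The Malpighian tubule list of 20 genes, mostly subunits of the V-type proton pump, was highest in luminous replicate 1, with sums of 5299, 2871 and 3006 FPKM against 2954 to 3027 FPKM in the non-luminous libraries. The summed level of 45 cuticle genes was 490.3, 524 and 848 FPKM in luminous replicates 1, 2 and 3, and that of 35 genes listed for blood cells was 1476, 1895 and 2509 FPKM. In the non-luminous libraries these sums were 358 to 545 FPKM and 1619 to 1785 FPKM. Neither rise was shared by every gene of its list. In luminous replicates 1, 2 and 3 the chitin deacetylase gene RI129_004642 stood at 125, 169 and 315 FPKM, but the cuticle protein gene RI129_000542 at 104, 56.0 and 87.7 FPKM. Of the blood cell genes, RI129_000816, a phenoloxidase-activating factor, stood at 146, 204 and 412 FPKM, but the hemocytin gene RI129_006783 at 206, 171 and 132 FPKM. The part of any of these lists in the pattern of the 6 members was not tested. Muscle genes were also higher in the luminous organ, with 9 of 16 called higher, 1 called lower, none at 0 in an organ, and summed levels of 23579.7 to 24339 FPKM against 9328 to 11899.8 FPKM; their part in the levels of the members was not tested. Of the 45 cuticle genes 1 was at 0 in every luminous library, and of the 35 blood cell genes 0 were.

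**Figure D2:**
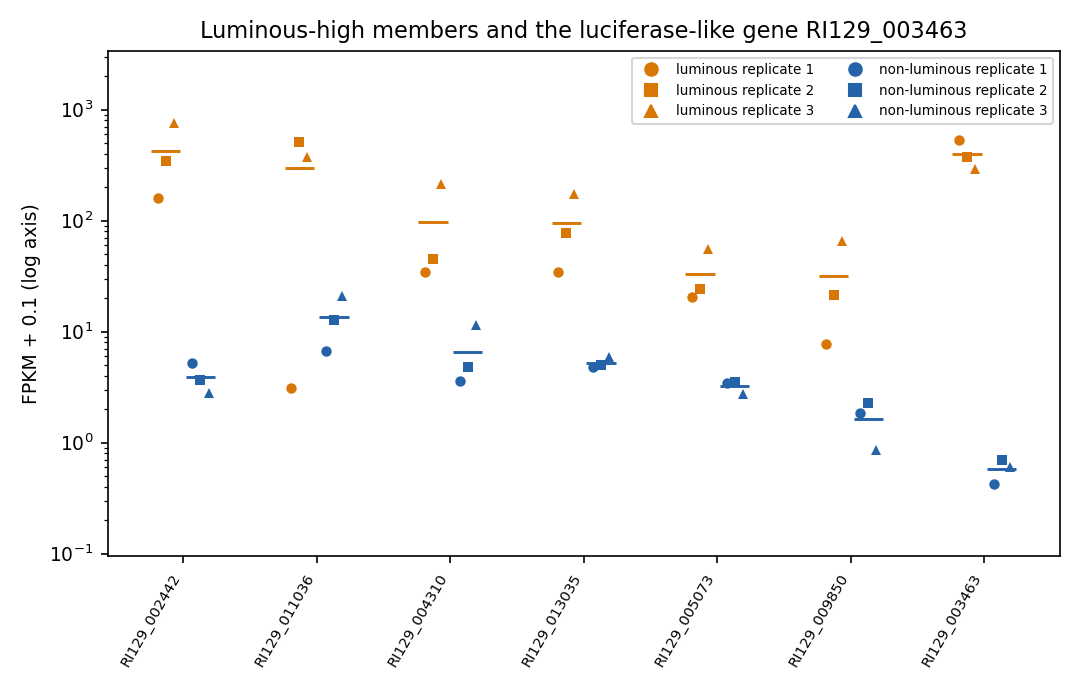
FPKM plus 0.1 on a log axis in each of the 6 libraries for the 6 luminous-high members and, at the right, the luciferin 4-monooxygenase gene RI129_003463. Points are libraries, with 1 marker shape per replicate number, and horizontal bars are organ means (n = 3). Luminous replicate 1, the orange circle, is the lowest luminous library for each member and the highest for RI129_003463.

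Limma called 5 of the 6 members, beside 9.63% of all genes tested that were called higher and 26.6% called in either direction. The groups did not overlap for 5 of the 6, beside 17.4% of tested genes that lay wholly higher. Because the same contrast chose the members, nothing is read from these counts. A voom fit on the read numbers recovered from the FPKM steps, chosen after seeing the data, called 3 of the 6 and left RI129_004310 and RI129_009850 uncalled. The call of RI129_004310 was also lost without non-luminous replicate 1, and that of RI129_009850 without non-luminous replicate 3. When the members were chosen again without luminous replicate 3, RI129_004310, RI129_005073 and RI129_009850 dropped out and 4 other genes came in. The 6 members together held 0.0328, 0.130 and 0.199% of all FPKM in luminous replicates 1, 2 and 3, and at most 0.00526% in a non-luminous library.

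The non-luminous-high set was dominated by RI129_004336. It stood at 17558, 8938 and 16909 FPKM in non-luminous replicates 1, 2 and 3 and at 3.63, 1.81 and 2.03 FPKM in the luminous replicates. That made it the gene with rank 3 in the non-luminous organ, with 561783 reads there and 104 reads in the luminous organ. The ratio of means was 5811, on a coding length of 702 bases. It alone held 77.1% of the summed FPKM of the 20 members, which took up 2.84, 1.46 and 2.64% of all FPKM in the non-luminous libraries and at most 0.0117% in a luminous one. In these organ samples fewer cells of a type and less RNA per cell cannot be told apart, which holds for every member.

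The next 3 members had means from 429.8 to 1578 FPKM. RI129_009222, with a short coding length of 345 bases, stood at 2017, 989 and 1727 FPKM in non-luminous replicates 1, 2 and 3. In the luminous libraries it was counted 2, 1 and 8 times, which gave 0.289, 0.142 and 1.22 FPKM. RI129_011220 was the longest member at 4653 bases and stood at 1339, 731 and 1332 FPKM. Its luminous values of 24.2, 9.72 and 7.02 FPKM were far from 0, with 3794 reads in all, so the ratio of means was 83.2. RI129_003806 stood at 468, 253 and 568 FPKM against 2.46, 1.32 and 3.08 FPKM, a ratio of 188. In each of the 4 most abundant members the groups did not overlap, and non-luminous replicate 2 stood at 0.489 to 0.547 times the mean of replicates 1 and 3.

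Between 100 and 200 FPKM lay 4 members with different luminous patterns. RI129_011798 stood at 214, 113 and 228 FPKM in the non-luminous libraries and at 33.8, 2.44 and 1.4 FPKM in luminous replicates 1, 2 and 3, so its luminous level rested mainly on replicate 1. RI129_006039 stood at 136, 94.7 and 239 FPKM against 1.72, 13.9 and 30.8 FPKM, with luminous replicate 1 the lowest. RI129_004086, of 3060 bases, stood at 177, 86.4 and 205 FPKM against 1.57, 0.704 and 0.569 FPKM. The calls of RI129_006039 were lost without non-luminous replicate 1 and without non-luminous replicate 3, while those of RI129_011798 and RI129_004086 were kept under every alternative run. RI129_004651 stood at 39.1, 103 and 283 FPKM in the non-luminous and 0, 1.87 and 3.72 FPKM in the luminous libraries. Its non-luminous values differed among themselves by a factor of 7.24, the groups did not overlap, and the voom fit did not call it.

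A pair of members owed their non-luminous mean to 1 library each. RI129_007795, the shortest of the 20 at 222 bases, stood at 9.08, 279 and 0 FPKM in non-luminous replicates 1, 2 and 3, and 1137 of its 1175 non-luminous reads came from replicate 2. RI129_004079 stood at 2.35, 0 and 128 FPKM, and 1768 of its 1802 non-luminous reads came from replicate 3. In both, a non-luminous library was at 0 and the groups overlapped. Limma called neither gene with all libraries, and chosen by the median of the libraries in place of the mean, neither would be a member.

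The other 10 members had means between 20.8 and 79.9 FPKM. RI129_007782 stood at 33.3, 13.2 and 33.8 FPKM and RI129_010029 at 20.6, 10.4 and 31.5 FPKM, and neither had a read in any luminous library. Against a floor of 3 reads over the luminous libraries, they were at least 321-fold and at least 216-fold higher. RI129_008755 stood at 47.8, 26.1 and 31.7 FPKM with 2 luminous reads, and RI129_006951 at 33.1, 17.0 and 29.2 FPKM with 8. Of the 20 members, 7 had at most 20 luminous reads in all. RI129_002425 stood at 54.9, 79.3 and 106 FPKM against 6.80, 2.13 and 3.44 FPKM, and RI129_003879 at 77.9, 37.1 and 83.0 FPKM against 8.77, 1.45 and 2.24 FPKM. RI129_005403 stood at 25, 17.1 and 54.5 FPKM against 3.18, 1.32 and 0 FPKM. It and the last 3 members, RI129_013168, RI129_003329 and RI129_013167, had rule ratios from 8.52 to 13.3. The groups did not overlap in any of these 10 members.

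**Figure D3:**
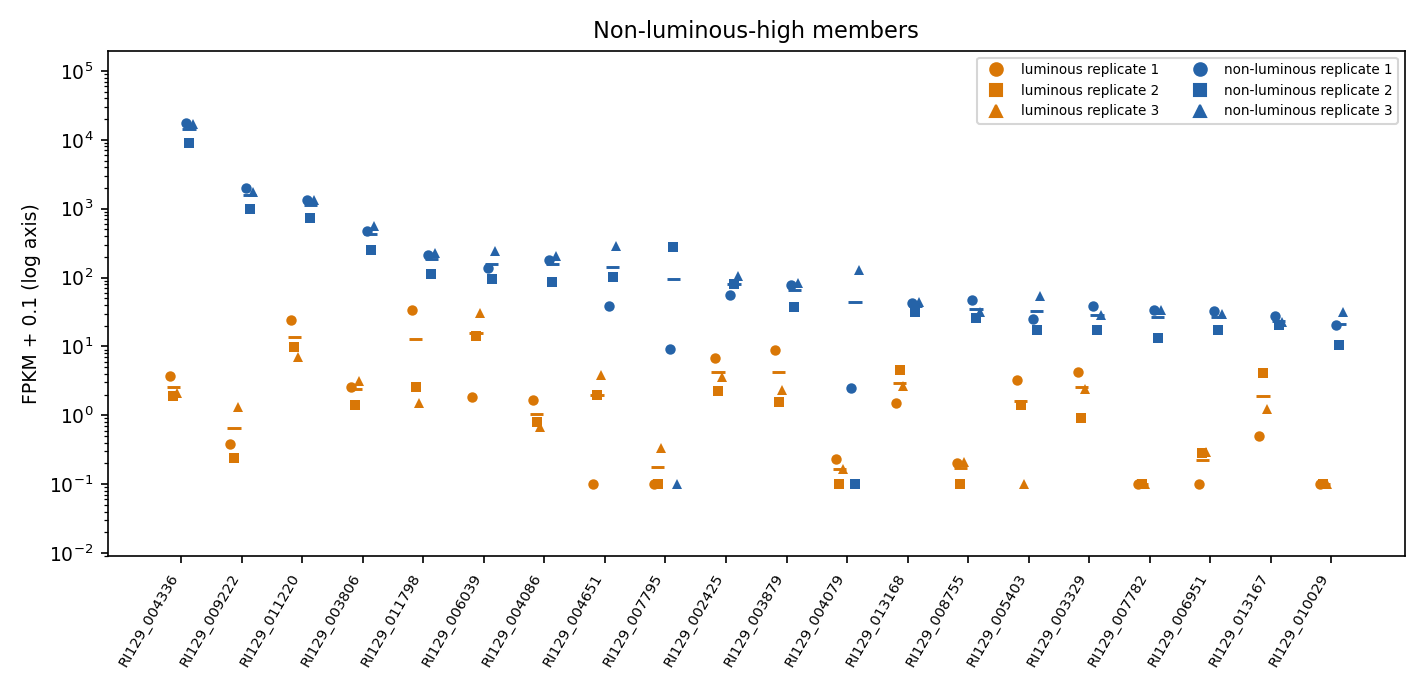
FPKM plus 0.1 on a log axis in each of the 6 libraries for the 20 non-luminous-high members, ordered by non-luminous mean. Points are libraries, with 1 marker shape per replicate number, and horizontal bars are organ means (n = 3). Non-luminous replicate 2, the blue square, is the lowest non-luminous library for 17 of the 20, and RI129_007795 and RI129_004079 are each high in 1 library.

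Most of the 20 had the same lowest library in the non-luminous organ. The rule used these libraries only through their mean, and the bounds of the range given next were chosen after the values were seen. Non-luminous replicate 2 was the lowest for 17 of the 20, and for 11 it stood between 0.4 and 0.6 of the mean of replicates 1 and 3. The median of that quotient was 0.518 over the 20 members. It was 0.549 over the 51 annotated genes past the same thresholds and 0.975 over the 4975 tested genes with a non-luminous mean of at least 20 FPKM. Replicate 2 was the lowest for 46 of the 51 annotated genes and for 39.8% of the 4975. The members outside the range of 0.4 to 0.6 included RI129_002425, with a quotient of 0.988 and replicate 1 as its lowest library. The adjacent pair RI129_013167 and RI129_013168, with 0.818 and 0.728, also lay outside it, although replicate 2 was the lowest for both.

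Some markers of the midgut were lower in the luminous organ, as the set was, and others were not. Their list held 133 genes named as trypsin, chymotrypsin, carboxypeptidase and the like, of which 77 were tested, 36 were lower and 6 higher in the luminous organ. Matching by words also took in some genes that are no digestive enzyme, such as ITIH4, an inhibitor family member. The summed level was 8236, 6378 and 8142 FPKM in non-luminous replicates 1, 2 and 3, and 3328, 2102 and 2672 FPKM in the luminous replicates. These sums lean on few genes. The chymotrypsin BI gene RI129_002540 alone stood at 3614, 2647 and 4140.3 FPKM in the non-luminous and 1.63, 0.37 and 0.332 FPKM in the luminous replicates. The zinc carboxypeptidase gene RI129_011196 stood at 1288, 553 and 363 FPKM against 1.21, 0.911 and 1.2 FPKM. Of the 133 genes, 20 were at 0 in every luminous library, among them the trypsin alpha-4 gene RI129_004078, and 3 were at 0 in every non-luminous library. Of the genes with the symbol deltaTry, a trypsin, RI129_013174 had means of 122 FPKM in the non-luminous and 0.0216 FPKM in the luminous organ. RI129_013186 had means of 163 and 15.0 FPKM, with 9.02, 21 and 14.9 FPKM in the luminous replicates. Other genes of the list had a higher luminous mean, such as the peritrophin-1 gene RI129_000481, with 191 FPKM against 63.7 FPKM. The chymotrypsin-1 gene RI129_013139 stood at 1296, 75.7 and 31.1 FPKM in the luminous replicates and 62.4, 216 and 158 FPKM in the non-luminous ones. The part of these markers in the levels of the 20 members was not tested.

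**Figure D4:**
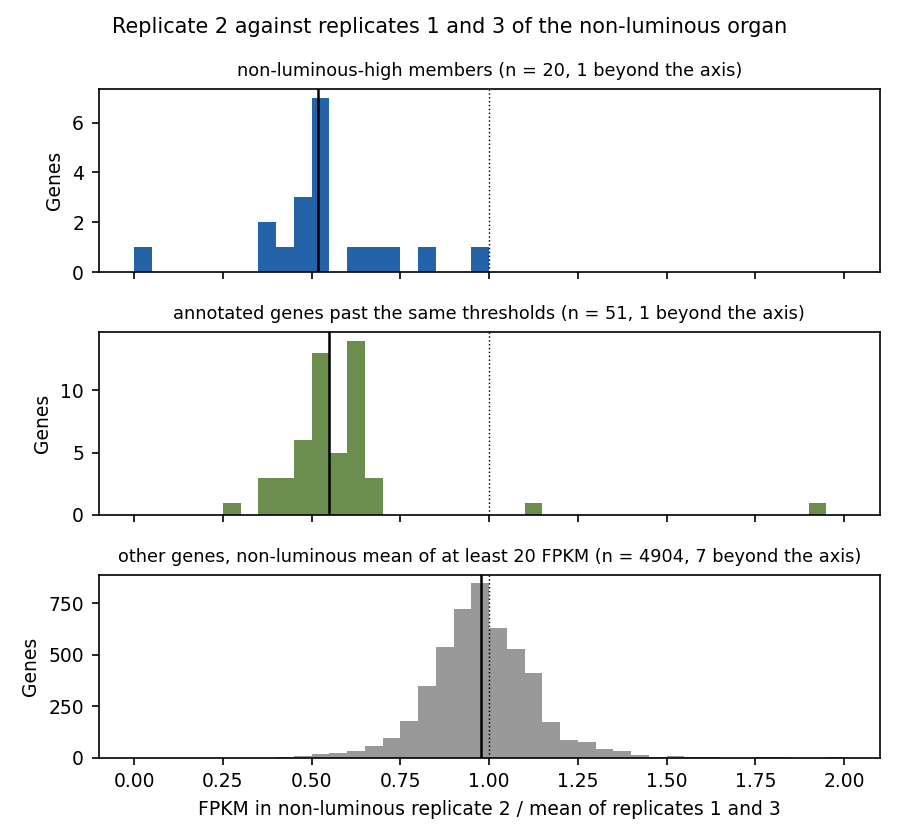
Number of genes by the quotient of FPKM in non-luminous replicate 2 over the mean of replicates 1 and 3, for the 20 non-luminous-high members, the 51 annotated genes past the same thresholds and the other tested genes with a non-luminous mean of at least 20 FPKM. Solid lines are medians and the dotted line marks 1. The upper pair of panels centre near 0.5 and the lowest panel near 1.

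Limma called 18 of the 20 members, beside 17% of all genes tested that were called lower in the luminous organ. The groups did not overlap for 18 of the 20, beside 28.7% of tested genes that lay wholly lower. The rule used this contrast, so these counts are given as a description. Of all 1667 tested genes without annotation, 12.5% were called higher and 17.1% lower, and their median log2 difference of -0.09 was that of all tested genes. Genes past the level and ratio thresholds numbered 14 annotated against 6 members on the luminous side, and 51 against 20 on the other. These counts are not scaled by group size, and only 3051 of the 12533 genes had no annotation.

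Coding length varied widely among the members, and it enters the rule through FPKM, which divides by length. The median was 592 bases over the 20 non-luminous-high members and 884 bases over the 6 luminous-high members. Under 600 bases lay 10 of the 20 and 2 of the 6, beside 31.5% of the tested genes without annotation and 12.4% of the tested annotated genes. The median was 909 bases over the 1667 tested genes without annotation, 1236 bases over the 51 annotated non-luminous-high genes and 1320 bases over tested annotated genes. No difference between these groups was tested. RI129_003806, RI129_002425, RI129_003879 and RI129_011798 gave lengths of 446, 506, 472 and 2605 bases, which are no multiple of 3, while 95.5% of the 7181 genes with at least 1000 reads gave a multiple of 3. That share is no independent check, because the scale of the lengths was set to make most of them multiples of 3. Genes with fewer reads were only searched over multiples of 3.

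The values of genes near the thresholds show what the choice turned on. Just outside the level threshold of the non-luminous-high set lay RI129_004318, at 19.7 ± 9.02 FPKM against 0.419 ± 0.0353 FPKM (SD, n = 3), and just inside it RI129_010029, at 20.8 ± 10.6 FPKM. Just outside the ratio threshold of the luminous-high set lay the adjacent pair RI129_003907 and RI129_003908, with rule ratios of 7.64 and 7.08. RI129_003907 stood at 1316, 185 and 221 FPKM in luminous replicates 1, 2 and 3 and RI129_003908 at 1035, 403 and 322 FPKM, so both were highest in replicate 1. A ratio of at least 4 would give 13 and 36 members, and a ratio of at least 16 would give 2 and 12.

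Few members lay next to each other in the numbering of the genes. The identifiers are used here only as an order, since gene positions were not used here. No pair of luminous-high members lay within 3 identifiers. In the non-luminous-high set, RI129_013167 and RI129_013168 were consecutive. RI129_013167 stood at 27.6, 20.4 and 22.2 FPKM and RI129_013168 at 42.6, 31.3 and 43.5 FPKM in the non-luminous libraries, against 0.397, 3.98 and 1.12 FPKM and 1.39, 4.47 and 2.58 FPKM in the luminous ones. Both were highest in luminous replicate 2. The pair was broken when the members were chosen again without luminous replicate 1, luminous replicate 3 or non-luminous replicate 1, each of which took RI129_013167 out.

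The neighbours of the members, which the rule did not choose, could be tested. Within 3 identifiers of a luminous-high member lay 29 tested genes that are no member, and limma called 8 of them (27.6%) higher and 3 lower in the luminous organ, beside the 9.63% of all genes that were called higher. Of the 8 higher genes, 7 had no annotation and 4 lay around RI129_011036. Within 10 identifiers 13 of 90 (14.4%) were called higher and 15 (16.7%) lower. Within 3 the count of higher genes was 5 without non-luminous replicate 3, where higher calls over all genes fell from 950 to 356. Around the non-luminous-high members, 19 of 82 tested neighbours (23.2%) were lower and 6 higher, beside 17% of all genes called lower. Within 10 identifiers the count was 52 of 265 (19.6%), nearer to that background. The 19 became 8 without luminous replicate 3, and 12, 9 and 7 when non-luminous replicate 1, 2 or 3 was left out. Over all genes the 1676 lower calls became 1022 in the first of these fits, and 960, 1015 and 740 in the others. Of the 6 luminous-high members 2 had no neighbour called in their own direction, and of the 20 others 7 had none.

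The genes named next lay within 3 identifiers of RI129_011036, carry no annotation either, and were chosen after their values were seen. RI129_011037 averaged 603 ± 139 FPKM (SD, n = 3) in the luminous organ, up from 198 ± 60.7 FPKM (log2 difference 1.62, SE 0.244, limma adjusted p = 0.0048), with 511, 536 and 763 FPKM in luminous replicates 1, 2 and 3. RI129_011034 rose from 40.6 ± 6.57 to 108 ± 29.7 FPKM (limma adjusted p = 0.00662). In both genes luminous replicate 1 stood near the other luminous libraries, and both calls held under every alternative run. RI129_011035 and RI129_011038 rose by 1.13 and 0.81 on the log2 scale (limma adjusted p = 0.0127 and 0.0251). The call of RI129_011035 was lost without non-luminous replicate 3, and that of RI129_011038 with the block, in the voom fit, and when luminous replicate 1 or 3 or non-luminous replicate 2 or 3 was left out. RI129_011033, 3 identifiers away, went the other way, at 12, 13 and 1.04 FPKM in the non-luminous libraries against at most 0.124 FPKM in a luminous one (limma adjusted p = 0.0251). It was not called by voom, nor when luminous replicate 2 or 3 or non-luminous replicate 1 or 2 was left out.

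Some single neighbours of the non-luminous-high members had large differences of their own. The first pair named here was chosen after its values were seen. RI129_003330, next to RI129_003329, averaged 3.41 ± 2.11 FPKM (SD, n = 3) in the luminous organ, down from 26.0 ± 9.38 FPKM (log2 difference -2.69, SE 0.447, limma adjusted p = 0.0065), with 34.2, 15.8 and 28.0 FPKM in the non-luminous replicates where RI129_003329 stood at 38.8, 17.4 and 28.6 FPKM. The gene CG6836 (RI129_006952), described as an organic solute transporter alpha-like protein and next to RI129_006951, fell by 2.69 on the log2 scale (limma adjusted p = 0.00369). Both calls held under every alternative run. The trypsin alpha-4 gene RI129_004078, next to RI129_004079, fell from 8.51 ± 3.97 FPKM to no read (log2 difference -3.15, limma adjusted p = 0.00211), a call kept in every alternative in which it passed the filter. It stood at 11.8, 4.12 and 9.60 FPKM in the non-luminous replicates and so lacked the single high library of RI129_004079.

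Tsp2A (RI129_007779), a tetraspanin that in Drosophila belongs to the cell junctions of the gut lining, lay 3 identifiers from RI129_007782. It stood at 234, 112 and 203 FPKM in the non-luminous and 78.4, 7.74 and 3.25 FPKM in the luminous replicates (log2 difference -3.61, SE 0.966, limma adjusted p = 0.0311). It was no longer called when luminous replicate 2, luminous replicate 3 or any 1 of the non-luminous libraries was left out. Like RI129_011798, it was highest among the luminous libraries in replicate 1. RI129_007782 itself had no read in that library.

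**Figure D5:**
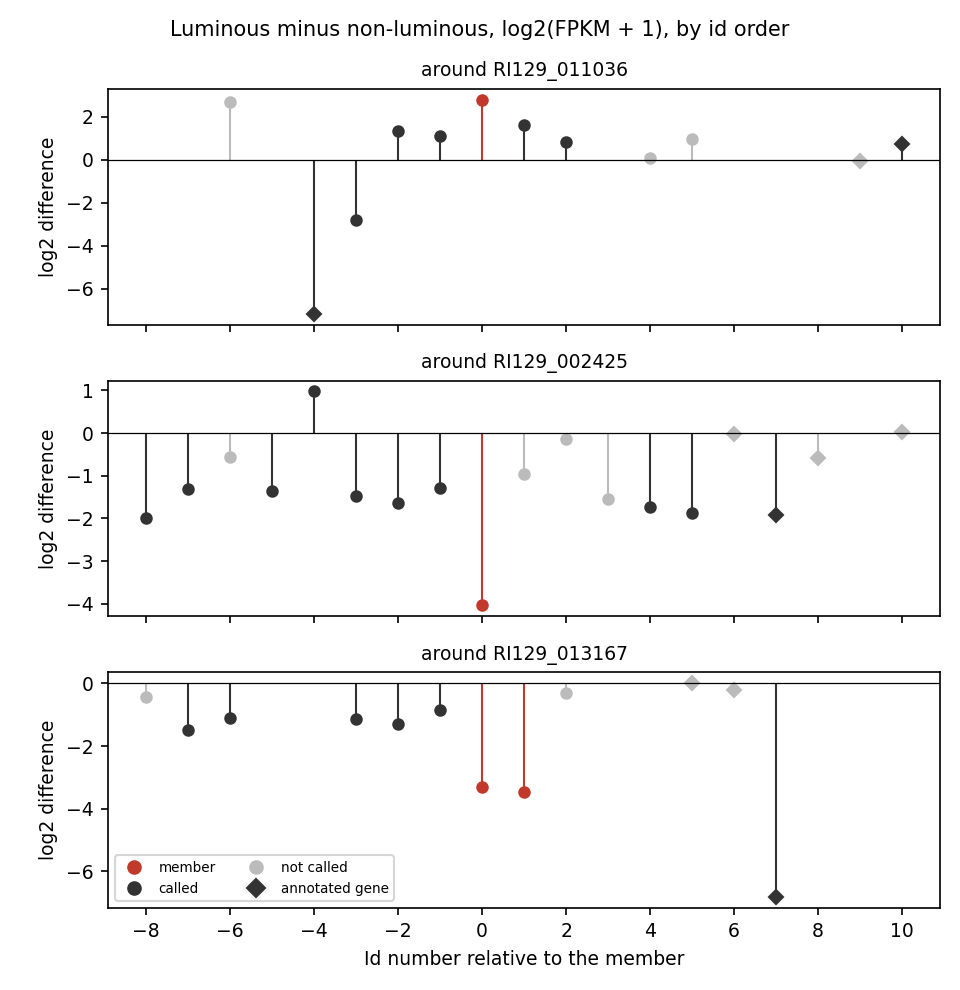
Log2 difference, given as luminous less non-luminous log2(FPKM + 1), of tested genes by identifier number relative to RI129_011036, RI129_002425 and RI129_013167, the members with 3 or more neighbours called in their direction within 3 identifiers. Red marks members, black other called genes, grey genes not called, and diamonds annotated genes. Around RI129_011036 the largest difference is that of the annotated gene RI129_011032, 4 identifiers away, at -7.18. The genes around RI129_002425 and RI129_013167 that were called within 3 identifiers and are no member were lower in the luminous organ, by less than the member, and the largest fall in the lowest panel is that of the trypsin gene RI129_013174, 7 identifiers away.

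RI129_002425 followed 3 genes without annotation, named here after their values were seen. RI129_002422, RI129_002423 and RI129_002424 fell by 1.47, 1.63 and 1.28 on the log2 scale (limma adjusted p = 0.00619, 0.0166 and 0.0218), and RI129_002425 differed by -4.04. Before the pair RI129_013167 and RI129_013168, the genes RI129_013164, RI129_013165 and RI129_013166 fell by 1.15, 1.31 and 0.86 (limma adjusted p = 0.0274, 0.0278 and 0.0369), where the pair differed by -3.30 and -3.46. Of these 6 neighbours, RI129_002422 was called under every alternative run, and each of the others lost its call without luminous replicate 3 and without at least 1 non-luminous replicate. RI129_002424, RI129_013164 and RI129_013166 also lost theirs with quantile normalization. RI129_013166, called in 7 of 16 settings, lost it with the replicate block, median-of-ratios rescaling and no filter as well. All 6 were higher in luminous replicate 2 than in luminous replicates 1 and 3, as the pair was, whereas RI129_002425 was lowest there.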

How the data were processed

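mRNA libraries of 3 luminous and 3 non-luminous organs of male fireflies were prepared with a stranded kit, per the labels' protocols. The submitters' processing notes name Trimmomatic, HISAT2, HTSeq and R 3.2.0, while a genome build and annotation were not given in the sources used here. The authors' deposited table gives FPKM for 12533 genes, and all of its value columns belong to these libraries. FPKM steps gave back whole read numbers, within 0.005 reads, for 11794 of the 11795 genes above 0 in at least 3 libraries (99.99%), and with them the library totals and coding lengths. A length is known only up to a factor shared by all read numbers of a gene, and its scale was set where most lengths were multiples of 3. The library totals rest on that same scale, which was searched only over a set range of totals.

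Differences were fitted with limma 3.58.1 in R 4.3.3 on log2(FPKM + 1), a scale that understates the change of low genes, with an intensity trend and no block. The fit took the 9863 genes whose FPKM averaged 1 or more across all 6 libraries, and calls had a Benjamini-Hochberg adjusted p under 0.05 over all of them. All 26 members passed this filter. The fit was tested on simulated data. The members, lists, tests and rules for naming genes were chosen with earlier results of these data known. Members were named by level, by ratio and by nearness to a threshold, and all 26 are described. Neighbours were named where called with a log2 difference of at least 3, and others are marked in the text. Sequences and gene positions were not used here. Counting floors cover counting error only, and p-values measure only the spread between these libraries. Alternatives were other pseudocounts, filters, scalings, member thresholds and identifier windows, a replicate block, each library left out, and voom on the recovered reads.

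Marker lists were matched by words in the descriptions. Each list not described in the report is given by its summed level in the luminous and then the non-luminous libraries. Sums lean on the most abundant genes of a list, so the calls in the luminous organ are given beside them. The 5 fat body genes summed to 171 to 309 and 363 to 379 FPKM. Of the 4 tested, 1 was called higher and 3 lower. The 34 nervous system genes summed to 1493 to 1804 and 971 to 1115 FPKM. Of the 28 tested, however, 3 were called higher and 4 lower. The 74 testis and sperm genes summed to 989 to 1072 and 834 to 979.8 FPKM. Of the 46 tested, however, 1 was called higher and 9 lower. The trachea list matched 1 gene, at 7.67 to 12.3 and 7.37 to 9.29 FPKM, which was not called.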

Additional observations from a re-analysis of the deposited data

How the results depend on the processing

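Across the alternatives, 389 log2 differences of members kept their sign, and 350 lay within 1 SD of the reported value. The rule chose members with a large difference in these same libraries, so a kept sign supports nothing. The SD is each member's own spread within organs on the log2 scale, so uneven members stay within it more easily. Leaving out 1 library gave 356 to 956 genes higher and 740 to 1709 lower in the luminous organ, against 950 and 1676. Quantile normalization gave 1480 higher. Of the luminous-high members 4 to 6 were called with a library left out, and 3 by voom, which was chosen after seeing the data. Called neighbours numbered 5 to 8 around luminous-high and 7 to 18 around non-luminous-high members with a library left out. They numbered 2 of 9 tested (22.2%) and 9 of 28 (32.1%) within 1 identifier. Within 10 they numbered 13 of 90 (14.4%) and 52 of 265 (19.6%), beside 9.63% and 17% of all genes tested. The luminous-high set held 13 genes at a ratio of at least 4 and 2 at 16. The non-luminous-high set held 36 and 12 at these ratios, 11 at a mean of at least 50 FPKM, and 10 with 5 added to each mean. Chosen again without a library, 0 to 2 luminous-high and 0 to 2 non-luminous-high members lay in runs of near identifiers, and 4 non-luminous-high members did with a gap of 10. Without RI129_004336 the non-luminous-high set held 0.53% of all FPKM, against 2.32%. The cause of these shifts was not tested. Same-numbered libraries had correlations of -0.111, -0.00869 and -0.166 between their deviations from the organ means. With 3 libraries an organ, these values cannot decide whether same-numbered libraries share an animal or batch, and the labels state no pairing. The fit with the replicate block called 668 genes higher and 1328 lower, with 5 and 18 members and 7 and 18 neighbours. With 3 libraries an organ and single reads behind several low values, folds of members near 0 are uncertain.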

Other observations

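Among genes without annotation that are no member, the 5 most abundant in each organ came to 8 different genes, because a pair of them served both organs. RI129_010663 was the most abundant gene of the non-luminous organ, at 38066, 48979 and 50857 FPKM, and stood at 10668, 24453 and 18596 FPKM in luminous replicates 1, 2 and 3 (log2 difference -1.43, SE 0.367, limma adjusted p = 0.0271). This call held in 10 of 16 settings. It was lost with median-of-ratios rescaling, with no filter, and when luminous replicate 1 or 3 or non-luminous replicate 2 or 3 was left out, with adjusted p over all settings from 0.00931 to 0.202. RI129_009705 followed the same order, at 10408, 14422 and 15394 FPKM against 2523, 7356 and 3768 FPKM (limma adjusted p = 0.0198). RI129_012628, RI129_012278 and RI129_009376 were also lower in the luminous organ, by -1.61, -1.75 and -2.46 on the log2 scale (limma adjusted p = 0.0153, 0.0153 and 0.0198). The calls of RI129_009705 and RI129_012278 were lost without luminous replicate 3, non-luminous replicate 2 or non-luminous replicate 3. That of RI129_012628 was lost without non-luminous replicate 2 or 3, and that of RI129_009376 without non-luminous replicate 1 or 3. RI129_007334, RI129_009034 and RI129_010479 were higher in the luminous organ, of which RI129_010479 lost its call without non-luminous replicate 3. RI129_007334 stood at 5777, 4808 and 5330.1 FPKM against 1842, 1826 and 1417 FPKM (log2 difference 1.65, SE 0.172, limma adjusted p = 0.00152).

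A rule chosen after seeing the data, at least 20 FPKM in 1 library and at least 10 times the next library, found 7 genes. The members RI129_007795 and RI129_004079 were among them, in non-luminous replicates 2 and 3. The other 5 were all high in luminous replicate 1. RI129_007888, with no annotation, stood at 1832 FPKM there and at no more than 179 FPKM elsewhere. The rest were RI129_010613, with no annotation, and genes described as a collagenase, a phospholipase A2 and a U-scoloptoxin, at 33.4, 142, 102 and 70.5 FPKM in that library.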
